A study of Mus musculus with 11 samples.

Results

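The p53 target genes described here are Cdkn1a, Mdm2, Ccng1, Gdf15, Trp53inp1, Phlda3, Eda2r, Plk2, Sesn2 and Gadd45a, chosen by symbol. They are 10 of the 20893 genes in the expression table of a mouse liver time series, and all 10 were found and passed the filter on low values. The series measured mRNA by RNA-seq in homogenized whole livers of C57BL/6 background mice, to follow expression at 3 and 7 days after YAP was switched on. The controls were 4 livers of the genotype ROSA26-rtTA-IRES-EGFP; WT, fed doxycycline for 7 days. The induced livers had the genotype ROSA26-rtTA-IRES-EGFP; tetYAP, with 4 livers after 3 days of doxycycline food and 3 livers after 7 days.

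All groups therefore share the rtTA allele and doxycycline, although the 3-day livers had fewer days of the drug than the controls. By the study's methods the tet-YAP transgene encodes a constitutively active YAP. It was combined with an Alb-CRE driver, which acts in hepatocytes and the cells that share their lineage, and with a Cre-dependent rtTA. Whether the controls also carried Alb-CRE is not given in the sources used here, so effects of Cre and of YAP cannot be told apart. The age of these mice was not given. YAP is a coactivator of the TEAD transcription factors and is restrained by the Hippo kinases.

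p53, encoded by Trp53, is a transcription factor that is held at a low level by the ubiquitin ligase MDM2 and accumulates after DNA damage, oncogene activity and other stress. It binds a response element made of a pair of decamers and switches on genes for cell cycle arrest, for apoptosis, for repair and metabolism, and for its own inhibition. Many of its target genes also respond to other factors. In liver, p53 is known for arresting damaged hepatocytes and for limiting tumours.

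The libraries held 1236177 to 5474757 recovered reads on genes in the control group, 2641965 to 3663799 in the 3-day group and 5292555 to 5921243 in the 7-day group. By Xist and the Y-linked gene Ddx3y, 2 of 4 control mice, 2 of 4 mice at 3 days and 3 of 3 mice at 7 days were female. Sex and depth were thus partly confounded with 7 days, and values from female livers alone are given beside the 7-day calls of members that they ended and beside some other values. The row named Yap1 ranged from 13.9 to 21.1 eRPKM in controls and from 17.4 to 19.0 eRPKM at 7 days, and was not called (limma adjusted p = 0.917). Whether reads of the transgene would be counted in that row is not given in the sources used here, so it does not check the labels.

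Promoters are shown for the members with the largest rises and for Mdm2, so that the letters can be read beside the values. The sequences cover 250 bases before to 50 bases after a transcription start and are RefSeq's (table build GRCm38.p6), with an exact and single match on mm9, the build of the files. RefSeq's table held 9 of the 10 members, all but Trp53inp1. Capitals mark p53 decamers (purines, C, a pair of A or T, G, pyrimidines) or the hexamer CATTCC with its reverse complement GGAATG, the core that TEAD factors are known to bind. Mouse Cdkn1a has several starts, and its most upstream start is shown (chr17:29227674-29227973, plus strand).
Cdkn1a: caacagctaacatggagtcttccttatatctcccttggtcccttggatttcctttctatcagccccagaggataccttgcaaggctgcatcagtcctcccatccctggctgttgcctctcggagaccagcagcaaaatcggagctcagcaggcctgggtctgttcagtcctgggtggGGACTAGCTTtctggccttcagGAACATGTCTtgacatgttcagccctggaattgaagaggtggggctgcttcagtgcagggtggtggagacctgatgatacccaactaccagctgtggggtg
Its capitals are the decamers GGACTAGCTT, from base -73, and GAACATGTCT, from base -51, close enough for a full element by the rule used here. Directly after GAACATGTCT follows tgacatgttc, which departs from the pattern only in its opening T and so was neither marked nor counted. Counting a pair up to 13 bases apart as full, 0.0731% of 32851 promoters of this length held such an element, and no promoter of the other members did. The other Cdkn1a start in the table, chr17:29230464-29230763, held no decamer. Mdm2 (chr10:117147765-117148064, minus strand) held a single decamer from base -186, which 8.36% of all promoters do.
Mdm2: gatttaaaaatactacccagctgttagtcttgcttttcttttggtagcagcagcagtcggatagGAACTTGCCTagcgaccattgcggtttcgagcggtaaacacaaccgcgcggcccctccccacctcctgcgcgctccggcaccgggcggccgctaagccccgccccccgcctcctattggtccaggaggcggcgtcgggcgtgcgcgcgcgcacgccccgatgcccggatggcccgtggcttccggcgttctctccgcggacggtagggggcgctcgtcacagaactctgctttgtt
A single decamer was also found for Ccng1, from base -185, and Gadd45a, from base -40. The CATTCC hexamer, on either strand, was in 14.7% of all promoters. It occurred in Phlda3 from base 7 after the start (chr1:137662412-137662711, plus strand), in Eda2r from base -32 (chrX:94572499-94572798, minus strand) and at a start of Gdf15 from base -137 (chr8:73155945-73156244, minus strand).
Phlda3: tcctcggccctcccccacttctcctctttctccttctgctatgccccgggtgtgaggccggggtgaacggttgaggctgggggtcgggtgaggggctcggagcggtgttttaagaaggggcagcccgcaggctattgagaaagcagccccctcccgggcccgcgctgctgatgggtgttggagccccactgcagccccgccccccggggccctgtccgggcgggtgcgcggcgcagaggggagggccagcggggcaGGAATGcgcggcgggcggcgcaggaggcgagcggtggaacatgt
Eda2r: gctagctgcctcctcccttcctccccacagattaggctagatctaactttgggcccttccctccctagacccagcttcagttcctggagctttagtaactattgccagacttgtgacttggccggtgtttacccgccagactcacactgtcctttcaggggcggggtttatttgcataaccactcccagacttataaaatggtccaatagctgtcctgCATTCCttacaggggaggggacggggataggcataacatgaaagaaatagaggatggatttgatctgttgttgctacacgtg
Gdf15: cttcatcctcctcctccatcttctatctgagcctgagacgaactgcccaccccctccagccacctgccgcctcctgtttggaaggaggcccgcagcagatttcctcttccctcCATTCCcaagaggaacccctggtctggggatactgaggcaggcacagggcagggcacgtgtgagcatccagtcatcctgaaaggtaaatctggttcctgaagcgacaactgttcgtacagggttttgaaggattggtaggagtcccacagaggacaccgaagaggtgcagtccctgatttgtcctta
The windows of Sesn2 and Plk2 held neither motif. TGACTCA or its complement TGAGTCA, found in 5.2% of all promoters, was in no member's window, and TGACGTCA, in 1.79%, was in that of Plk2 from base -62. These matches describe letters in short windows, while many p53 elements are known to lie in introns or farther upstream.

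After 7 days of YAP induction, 7 of the 10 p53 target genes were higher than in controls and none was called lower. Those called were Cdkn1a, Gdf15, Phlda3, Eda2r, Gadd45a, Plk2 and Mdm2, with the mean eRPKM rising between 1.96-fold (Mdm2) and 22.3-fold (Cdkn1a). eRPKM is the authors' count of reads per kilobase of exon scaled to library size. A gene was called at a limma adjusted p under 0.01 over 14244 tested genes and an absolute log2 fold change, of eRPKM + 0.5, above 0.5. By that rule 18.0% of all tested genes were called higher and 5.77% lower at 7 days. The median log2 fold change was 1.58 over the members and 0.26 over all tested genes. Every 7-day liver lay above every control for 9 of 10 members, where 36.7% of all tested genes did so. At 3 days none of the 10 members was called, and 0.0421% of all genes were called higher.

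**Figure D1:**
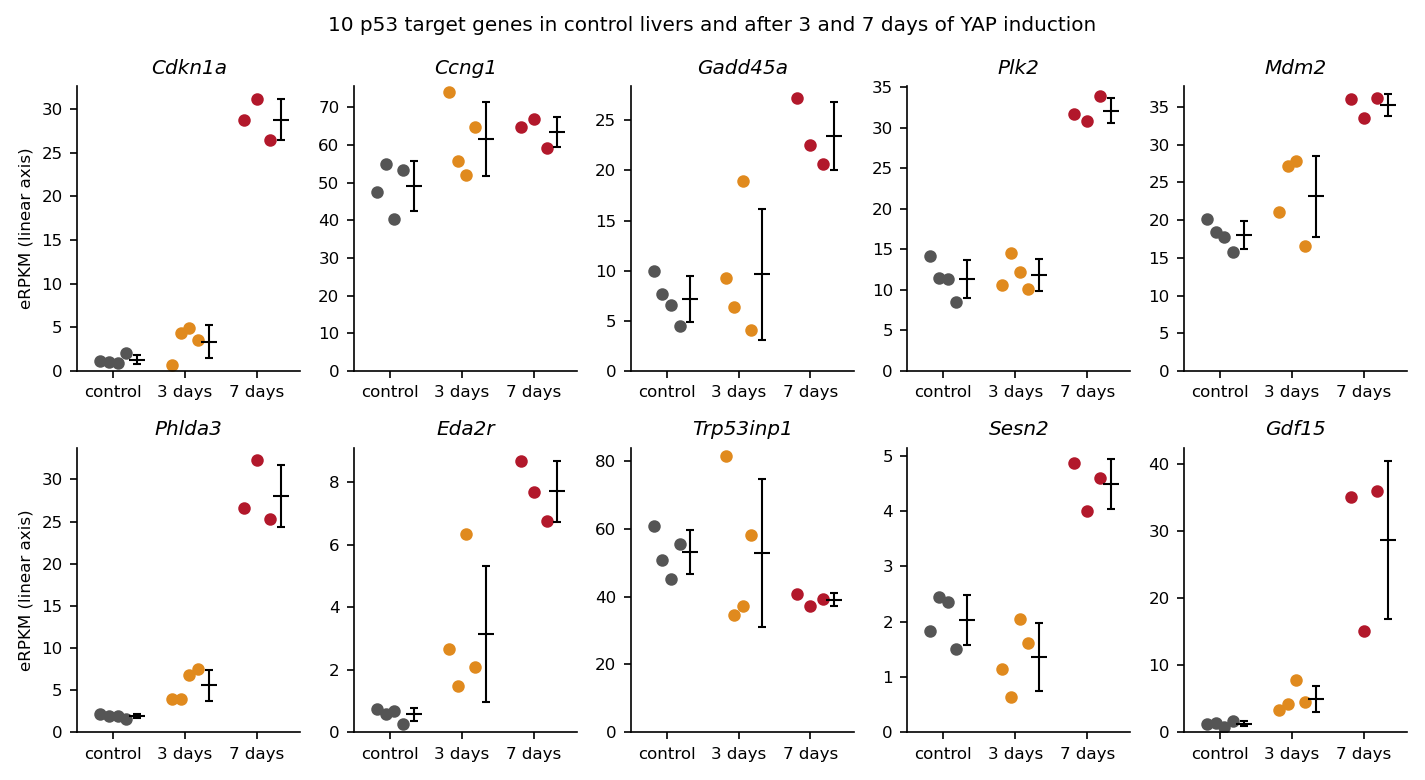
Each point is the eRPKM of 1 liver on a linear axis, for 4 control, 4 3-day and 3 7-day livers, with the group mean and SD as black bars. Cdkn1a, Gdf15, Phlda3 and Eda2r start near the bottom of their axes and all 7-day livers lie above all others, by little for Eda2r (6.75 against 6.34), whereas Ccng1 (log2 fold change 0.38) and Trp53inp1 (-0.43) were not called at 7 days against control.

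Among the genes of cell cycle arrest, Cdkn1a encodes p21, the inhibitor of cyclin-dependent kinases that carries out p53's arrest in the first phase of the cycle (mm9 chromosome 17, 29227924 to 29237667, plus strand). Its level was 1.12, 1.03, 0.909 and 2.10 eRPKM in control livers 1 to 4, from 5 to 13 reads each. At 3 days it was 0.657, 4.34, 4.88 and 3.57 eRPKM, and at 7 days 28.8, 31.1 and 26.5 eRPKM. Thus 3 of 4 livers at 3 days lay above all controls and 1 lay below them, and the 7-day livers overlapped with no other. Cdkn1a rose by a log2 fold change of 4.07 (SE 0.45) at 7 days against control (limma adjusted p = 3.14e-05) and 3.13 (SE 0.45) against 3 days (limma adjusted p = 0.000236). At 3 days against control it was 0.94, with a 95% interval from 0.04 to 1.84 (limma adjusted p = 0.395). Without liver 1 of the 3-day group that value was 1.44 (limma adjusted p = 0.0160), and in the female livers alone 1.67 (limma adjusted p = 0.0495).

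Ccng1 encodes cyclin G1, which p53 induces and which takes part in MDM2's regulation (mm9 chromosome 11, 40562054 to 40568813, minus strand). It was among the most abundant members in every group, at 47.5, 55.1, 40.5 and 53.4 eRPKM in controls. The level was 74.0, 55.8, 52.0 and 64.9 eRPKM at 3 days and 64.8, 66.8 and 59.2 eRPKM at 7 days. The 7-day livers lay just above the controls and within the range of the 3-day livers. Its change at 7 days against control, on the log2 scale, was 0.38, with a 95% interval from 0.03 to 0.72, and was not called (limma adjusted p = 0.0793). Under 25 alternatives it ran from 0.10 to 0.51 and was called with quantile normalization only (0.51, limma adjusted p = 0.00852).

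Gadd45a encodes a stress protein that binds PCNA and p21 and takes part in DNA repair and kinase signalling (mm9 chromosome 6, 66985090 to 66987451, minus strand). It was at 9.97, 7.64, 6.59 and 4.44 eRPKM in controls, at 9.22, 6.34, 19.0 and 4.09 at 3 days, and at 27.2, 22.5 and 20.6 at 7 days. One 3-day liver, number 3, stood above all controls and near the 7-day livers, and the others lay within or just under the controls. The log2 fold change at 7 days was 1.69 (SE 0.40; limma adjusted p = 0.00535), a call that was lost in the female livers alone (1.65, limma adjusted p = 0.0341) and when any of the 3 7-day livers or control liver 3 or 4 was left out. It was also lost with median-ratio size factors (limma adjusted p = 0.0119) and with log2 Xist (limma adjusted p = 0.0124) or log2 depth (1.34, limma adjusted p = 0.0807) as a covariate. Its exons overlap by 317 bases with E230016M11Rik, a noncoding gene on the opposite strand, and reads were counted without strand, so the reads of these genes cannot be told apart there.

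Plk2 encodes a polo-like kinase that p53 induces and that acts in centriole duplication (mm9 chromosome 13, 111185252 to 111191052, plus strand). Its level was 14.2, 11.5, 11.3 and 8.50 eRPKM in controls, 10.6, 14.5, 12.2 and 10.1 at 3 days, and 31.7, 30.8 and 33.9 at 7 days. The 3-day livers covered the same range as the controls, and the 7-day livers lay close together and far above. Plk2 rose by 1.48 (SE 0.19; limma adjusted p = 8.09e-05) on the log2 scale at 7 days against control, and its change at 3 days was 0.06, with a 95% interval from -0.32 to 0.44.

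Among the feedback genes, Mdm2, which encodes p53's own ubiquitin ligase, rose moderately (mm9 chromosome 10, 117125944 to 117147814, minus strand). It was at 20.1, 18.4, 17.8 and 15.7 eRPKM in controls, at 21.1, 27.2, 27.8 and 16.5 at 3 days, and at 36.0, 33.5 and 36.2 at 7 days. Of the 3-day livers 3 lay above all controls, and the 7-day livers lay above all others. Mdm2 rose by 0.95 on the log2 scale at 7 days (SE 0.18; limma adjusted p = 0.00142), or 0.94 in the female livers alone, where it was not called (limma adjusted p = 0.0122), nor was it with log2 depth as a covariate (0.83, limma adjusted p = 0.0215). Its relative Mdm4, which encodes another inhibitor of p53, was at 23.4 to 39.996 eRPKM in controls and 30.0 to 33.1 at 7 days, and was not called (log2 fold change 0.00, 95% interval -0.44 to 0.45).

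Phlda3 encodes a pleckstrin homology domain protein that p53 induces and that restrains AKT signalling (mm9 chromosome 1, 137662696 to 137665713, plus strand). It was at 2.21, 1.92, 1.92 and 1.59 eRPKM in controls, from 3 to 16 reads each. The level was 3.97, 4.01, 6.83 and 7.54 eRPKM at 3 days and 26.7, 32.2 and 25.3 at 7 days, so the groups did not overlap in any comparison. Phlda3 had a log2 fold change of 3.57 (SE 0.25; limma adjusted p = 1.7e-06) at 7 days against control and 2.27 (SE 0.25; limma adjusted p = 3.88e-05) against 3 days. At 3 days against control it was 1.29 (SE 0.23; limma adjusted p = 0.0379), which missed the threshold of 0.01. The 2 female livers at 3 days averaged 7.19 eRPKM and the 2 male livers 3.99, whereas the control averages were 1.92 and 1.90. Female averages at 3 days were also the higher for Cdkn1a (4.22 and 2.50), Gdf15 (6.16 and 3.82), Eda2r (4.22 and 2.07), Gadd45a (11.5 and 7.78) and Sesn2 (1.83 and 0.892). They were the lower for Mdm2, Ccng1, Trp53inp1 and Plk2. The part of sex in these differences was not tested.

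Among the genes tied to cell death, Eda2r encodes a receptor of the tumour necrosis factor receptor family, whose ligand is ectodysplasin A2 (mm9 chromosome X, 94529179 to 94572555, minus strand). It was the lowest member in controls, at 0.760, 0.598, 0.683 and 0.263 eRPKM, from 2 to 20 reads each. At 3 days the level was 2.65, 1.496, 6.34 and 2.10 eRPKM and at 7 days 8.69, 7.69 and 6.75. All induced livers lay above all controls, and liver 3 at 3 days came close to the 7-day livers. Against control the log2 fold change of Eda2r was 2.95 at 7 days (SE 0.37; limma adjusted p = 6.9e-05). At 3 days it was 1.62 (SE 0.34; limma adjusted p = 0.0753). Between 7 and 3 days it was 1.33 (limma adjusted p = 0.0151), not called, but called without liver 3 of the 3-day group (1.69, limma adjusted p = 0.000803), and it was 0.95 in the female livers alone (limma adjusted p = 0.111) and 0.66 with quantile normalization.

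Trp53inp1 encodes a nuclear protein that promotes p53's activity and takes part in autophagy (mm9 chromosome 4, 11083578 to 11101526, plus strand). It had the highest mean of the members in controls, at 60.6, 50.8, 45.3 and 55.4 eRPKM. The level was 81.3, 34.5, 37.1 and 58.0 eRPKM at 3 days and 40.8, 37.1 and 39.3 eRPKM at 7 days. It was the single member whose 7-day livers all lay below all controls, as did 13.3% of all tested genes. The log2 fold change was -0.43, with a 95% interval from -0.97 to 0.11 (limma adjusted p = 0.195), and was not called.

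Among the genes of metabolism and stress signals, Sesn2 encodes sestrin 2, which restrains mTORC1 and is induced by p53 and by ATF4 (mm9 chromosome 4, 132047947 to 132066416, minus strand). It was at 1.82, 2.45, 2.35 and 1.51 eRPKM in controls, at 1.14, 0.640, 2.05 and 1.62 at 3 days, and at 4.88, 4.001 and 4.59 at 7 days. Of the 3-day livers 2 lay below all controls, and the 7-day livers lay above all others. Against 3 days the log2 fold change was 1.48 (SE 0.29; limma adjusted p = 0.00219) and was called, but not in the female livers alone (1.10, limma adjusted p = 0.0176) or without 7-day liver 1 or 3. Quantile normalization (0.78, limma adjusted p = 0.0273) and log2 depth as a covariate (1.34, limma adjusted p = 0.0111) also ended that call. Against control it was 0.99 (SE 0.29, limma adjusted p = 0.0175) and was not called, with 0.30 under quantile normalization. It was called in a fit of these 2 groups only (0.99, limma adjusted p = 0.00943) and by limma-voom (1.08, adjusted p = 0.00659).

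Gdf15 encodes a secreted stress cytokine of the transforming growth factor beta superfamily that acts on the brainstem to lower food intake (mm9 chromosome 8, 73153292 to 73156355, minus strand). It was at 1.25, 1.39, 0.869 and 1.67 eRPKM in controls, from 3 to 11 reads each. The level was 3.40, 4.23, 7.77 and 4.55 eRPKM at 3 days and 35.02, 15.1 and 36.0 eRPKM at 7 days. The groups did not overlap, although 7-day liver 2 lay well below the other two. Gdf15 rose by a log2 fold change of 3.94 (SE 0.34; limma adjusted p = 6.09e-06) at 7 days against control and 2.37 (SE 0.34; limma adjusted p = 0.000233) against 3 days. At 3 days against control it was 1.57 (SE 0.31; limma adjusted p = 0.0617).

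**Figure D2:**
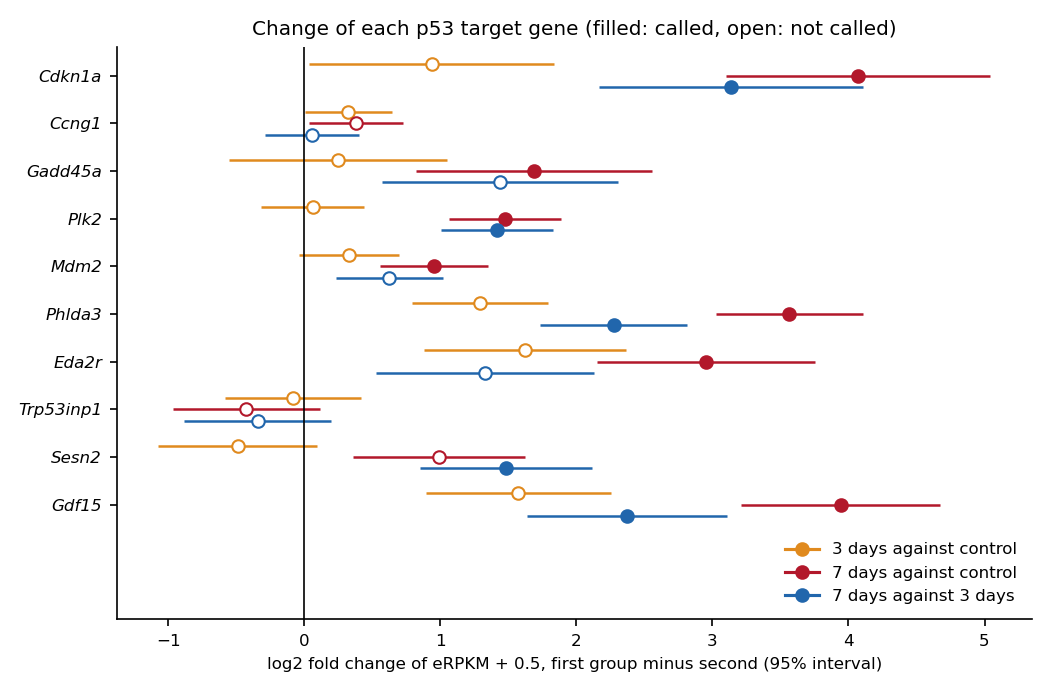
Points give the log2 fold change of eRPKM + 0.5 of each member in the 3 comparisons, with lines for the 95% interval, filled where called and open where not. The red points for 7 days against control reach 4.07 for Cdkn1a and 3.94 for Gdf15, and lie at 0.38 for Ccng1 and -0.43 for Trp53inp1.

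The order of the members by level changed with induction. In controls Trp53inp1 and Ccng1 had the highest mean eRPKM, 53.04 ± 6.54 and 49.1 ± 6.62 (SD, n = 4), and their livers overlapped. Gdf15 and Cdkn1a were next to last, at 1.30 ± 0.335 and 1.29 ± 0.546 eRPKM (SD, n = 4), and overlapped as well. At 7 days Cdkn1a, Gdf15 and Phlda3 had means of 28.8 ± 2.34, 28.7 ± 11.8 and 28.1 ± 3.69 eRPKM (SD, n = 3) and did not differ beyond their spread. The means of Plk2, at 32.1 ± 1.59, and Mdm2, at 35.2 ± 1.49 eRPKM (SD, n = 3), were somewhat higher, but the livers of Plk2 overlapped with those of all 3 and the livers of Mdm2 with those of Gdf15.

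At 3 days the members were spread widely among livers. Gdf15, Phlda3 and Eda2r lay above all controls in all 4 livers, 3 of 10 members where 3.38% of all tested genes did so. No member lay below all controls in all 4 livers, as did 2.25% of the genes. The exact two-sided permutation p was 0.0286 for Gdf15, Phlda3 and Eda2r, the smallest that 70 splits allow. Full separation of the groups fixes this p, so it adds nothing to the separation itself. At an unadjusted p under 0.05, limma gave 5 of 10 members at 3 days and 12.1% of all tested genes. By the calling rule, limma-voom on the recovered reads also called 0 members, but over all genes it called only 1 higher and 0 lower. Liver 3 had the highest value of the 3-day livers for 6 of 10 members.

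Between 7 and 3 days, 5 of the 10 members were called higher (Cdkn1a, Gdf15, Phlda3, Plk2 and Sesn2) and none lower, where 14.0% of all tested genes were higher and 5.31% lower. For 8 of 10 members every 7-day liver lay above every 3-day liver, as for 31.3% of all genes. The count rose to 8 without liver 3 of the 3-day group, when Mdm2, Eda2r and Gadd45a were also called. Calls over all genes rose as well without that liver, to 2618 higher and 1065 lower, from 1997 and 756. The 3 comparisons share livers and are not independent of each other.

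In the female livers alone (2 control, 2 at 3 days and 3 at 7 days), 5 members were called at 7 days against control, with log2 fold changes of 4.31 for Cdkn1a, 4.08 for Gdf15, 3.55 for Phlda3, 2.84 for Eda2r and 1.45 for Plk2. Calls over all genes fell too, to 1552 higher and 617 lower in female livers, from 2561 and 822 in all livers. With log2 depth as a covariate the same 5 members were called, and the calls over all genes in that fit are not given here.

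The level of Trp53 mRNA itself rose at 7 days. It was at 7.18, 10.2, 10.4 and 7.23 eRPKM in controls, at 3.55, 9.41, 13.3 and 5.92 at 3 days, and at 23.7, 19.1 and 28.3 at 7 days (mm9 chromosome 11, 69393861 to 69405375, plus strand). The 3-day livers spread around the controls, and the 7-day livers lay above all others. The log2 fold change was 1.39 (SE 0.35; limma adjusted p = 0.00703) against control and 1.63 (SE 0.35; limma adjusted p = 0.00345) against 3 days. Neither was called in the female livers alone (1.15, limma adjusted p = 0.0249, and 1.34, limma adjusted p = 0.0166). The call against control was also lost when any control or any 7-day liver was left out, with log2 fold changes from 1.26 to 1.53, and with median-ratio size factors (1.12), quantile normalization (1.06) or log2 Xist or log2 depth (1.14) as a covariate. That against 3 days was lost without 3-day liver 4 or 7-day liver 1 or 3, with log2 Xist (1.43) or log2 depth (1.45) as a covariate, and in a fit of these 2 groups only. p53 is mainly controlled through the stability of its protein, which these data do not measure.

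Of 12 genes that regulate or relate to p53, 9 passed the filter, 2 were called higher at 7 days against control (Trp53 and Chek1) and none lower, beside 18.0% and 5.77% of all tested genes. Chek1, the kinase of the replication checkpoint, was at 0.751 ± 0.199 eRPKM in controls and 7.87 ± 2.44 at 7 days (log2 fold change 2.71, SE 0.44, limma adjusted p = 0.00047). Hipk2, a kinase that can phosphorylate p53, was called between 7 and 3 days only among these comparisons (0.99, SE 0.24, limma adjusted p = 0.00688). Trp63, Trp73 and Cdkn2a, whose product ARF inhibits MDM2, were under the filter, with at most 31, 6 and 5 reads in any liver. At this depth a small change of Cdkn2a was not detectable.

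Other known targets of p53, from 3 textbook lists, were examined beside the members. Of 37 genes, 35 passed the filter, and at 7 days against control 13 (37.1%) were called higher and 2 (5.71%) lower, beside the 18.0% and 5.77% of all tested genes. Their median log2 fold change was 0.85, beside 0.26 over all tested genes. By list it was 1.02 for arrest and feedback, 1.10 for apoptosis and 0.23 for repair and metabolism. At 3 days none was called, and the median over the 3 lists together was 0.04.

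Among the targets of arrest and feedback, 4 of 9 genes past the filter were higher at 7 days and none was lower. Btg2, an antiproliferative cofactor of mRNA decay, rose from 8.93 ± 3.91 to 70.8 ± 25.2 eRPKM (log2 fold change 2.93, SE 0.33, limma adjusted p = 3.55e-05). Psrc1, a microtubule protein of the spindle, rose from 0.258 ± 0.189 to 6.23 ± 1.56 eRPKM (3.16, SE 0.34, limma adjusted p = 2.67e-05). Gtse1, which is made in the later part of the cell cycle and binds microtubules and p53, rose from 0.893 ± 0.357 to 9.99 ± 1.42 eRPKM (2.94, SE 0.53, limma adjusted p = 0.000948). Psrc1 and Gtse1 are known as genes of dividing cells and do not themselves arrest the cycle.

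Among the targets of apoptosis, 5 of 13 genes were higher at 7 days and none was lower. Pmaip1, the BH3-only protein NOXA, rose from 1.01 ± 0.569 to 13.3 ± 1.44 eRPKM (3.28, SE 0.32, limma adjusted p = 1.24e-05). Bax, an executor of the mitochondrial pathway, rose from 10.1 ± 1.08 to 38.5 ± 2.57 eRPKM (1.88, SE 0.19, limma adjusted p = 1.58e-05). Siva1, a proapoptotic adaptor, rose from 6.38 ± 1.87 to 24.3 ± 0.719 eRPKM (1.89, SE 0.23, limma adjusted p = 5.4e-05). Aen and Apaf1 were also called. Not called were the death receptor gene Fas (-0.08), Perp (-0.44), Ei24 (-0.17), Bid (0.73), Bbc3 (1.10), Pidd1 (1.56), Tnfrsf10b (0.85) and Tnfrsf23 (0.74).

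Among the targets of repair and metabolism, 4 of 13 genes past the filter were higher and 2 lower at 7 days. Ddit4, an inhibitor of mTORC1, rose from 3.17 ± 0.990 to 37.0 ± 9.91 eRPKM (3.37, SE 0.30, limma adjusted p = 7.92e-06). Ckap2, a protein of the mitotic spindle, rose from 1.68 ± 1.53 to 26.0 ± 7.24 eRPKM (3.95, SE 0.73, limma adjusted p = 0.0011), and Pltp, the phospholipid transfer protein, from 11.05 ± 6.50 to 50.5 ± 3.65 eRPKM (2.33, SE 0.42, limma adjusted p = 0.000948). Gls2, the liver glutaminase, fell from 152 ± 29.4 to 46.4 ± 1.84 eRPKM (-1.68, SE 0.16, limma adjusted p = 9.69e-06), and Slc19a2, a thiamine transporter, from 88.2 ± 2.69 to 31.9 ± 0.791 eRPKM (-1.45, SE 0.15, limma adjusted p = 2.1e-05).

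**Figure D3:**
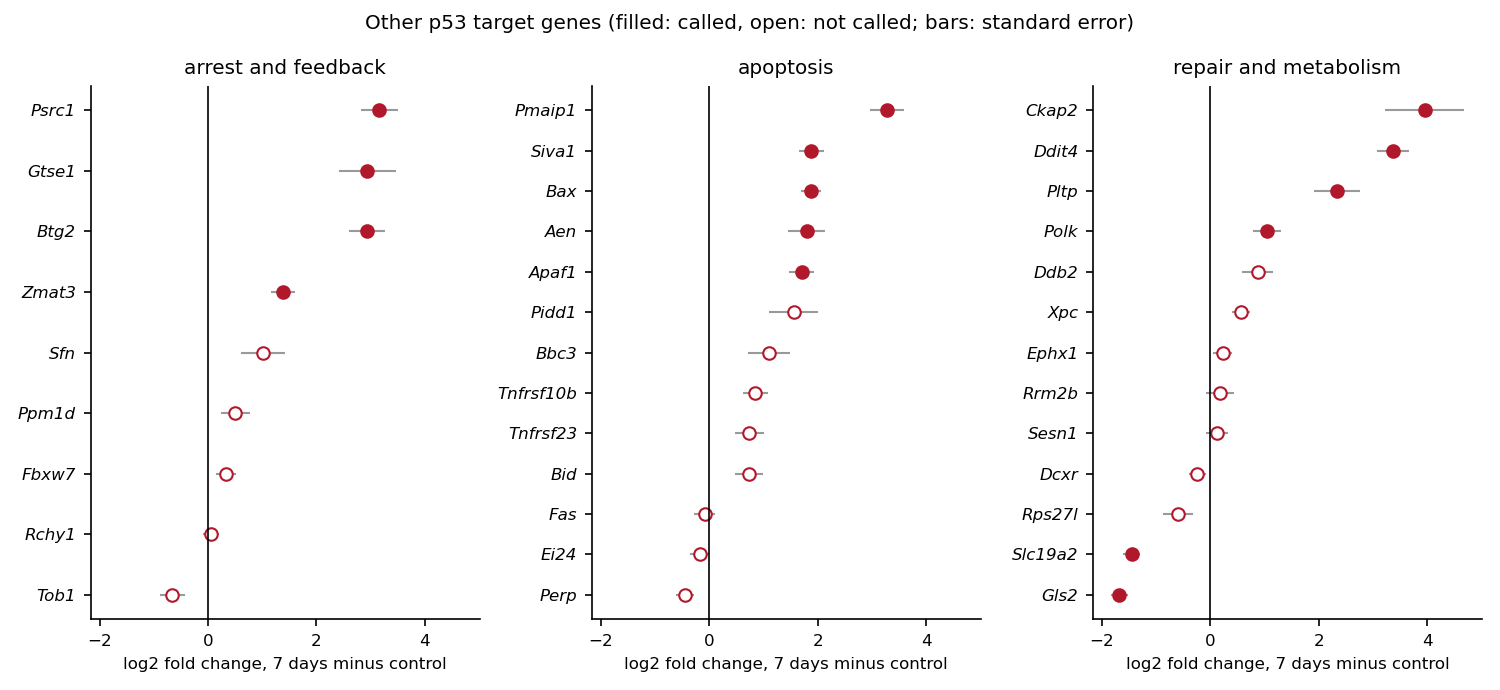
Each point is the log2 fold change of eRPKM + 0.5, 7 days minus control, of a gene in 1 of 3 lists of other p53 targets, with the standard error as a bar, filled where called. The 13 higher genes are spread over all 3 lists, and the 2 lower genes, Gls2 and Slc19a2, are both in the list of repair and metabolism.

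Relatives of the members that are not all p53 targets were mixed, with 6 of 14 called higher and 1 lower at 7 days against control, beside 18.0% and 5.77% of all tested genes. Gadd45b, the NF-kB and stress induced relative of Gadd45a, rose from 2.50 ± 2.0 to 75.7 ± 19.0 eRPKM (4.89, SE 0.81, limma adjusted p = 0.000512). Plk1, the mitotic polo-like kinase, and Tnfrsf19, a receptor in the family of Eda2r, rose by 2.39 (SE 0.37, limma adjusted p = 0.00031) and 1.88 (SE 0.24, limma adjusted p = 8.48e-05) on the log2 scale. Phlda1, a relative of Phlda3, fell from 38.6 ± 19.5 to 10.7 ± 4.17 eRPKM (-1.72, SE 0.45, limma adjusted p = 0.00948). Sesn1 (0.13) and Ccng2 (0.15) were not called.

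p21 is known to bring about repression of cell cycle genes through the DREAM complex. All 12 genes of a textbook list of these were called higher at 7 days against control, as were 18.0% of all tested genes. Their median log2 fold change was 3.22, beside 0.26 over all tested genes. Cdk1, the mitotic kinase, rose from 0.993 ± 0.787 to 17.1 ± 2.85 eRPKM (3.69, SE 0.46, limma adjusted p = 6.86e-05). Its activating cyclin gene Ccnb1 rose from 1.14 ± 1.02 to 19.9 ± 5.79 eRPKM (3.79, SE 0.54, limma adjusted p = 0.000173). Cdc20, an activator of the anaphase promoting complex, rose from 1.65 ± 1.93 to 24.5 ± 8.95 eRPKM (3.82, SE 0.68, limma adjusted p = 0.0009). At 3 days none was called, beside 0.0421% of all tested genes called higher. The median of the 12 was then 1.83, where that of the 10 p53 targets was 0.33. Between 7 and 3 days 1 of the 12, Plk1, was called higher, beside 14.0% of all tested genes. Cdkn1a and these cell cycle genes were thus high in the same 7-day livers, and bulk RNA does not show whether they were high in the same cells.

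**Figure D4:**
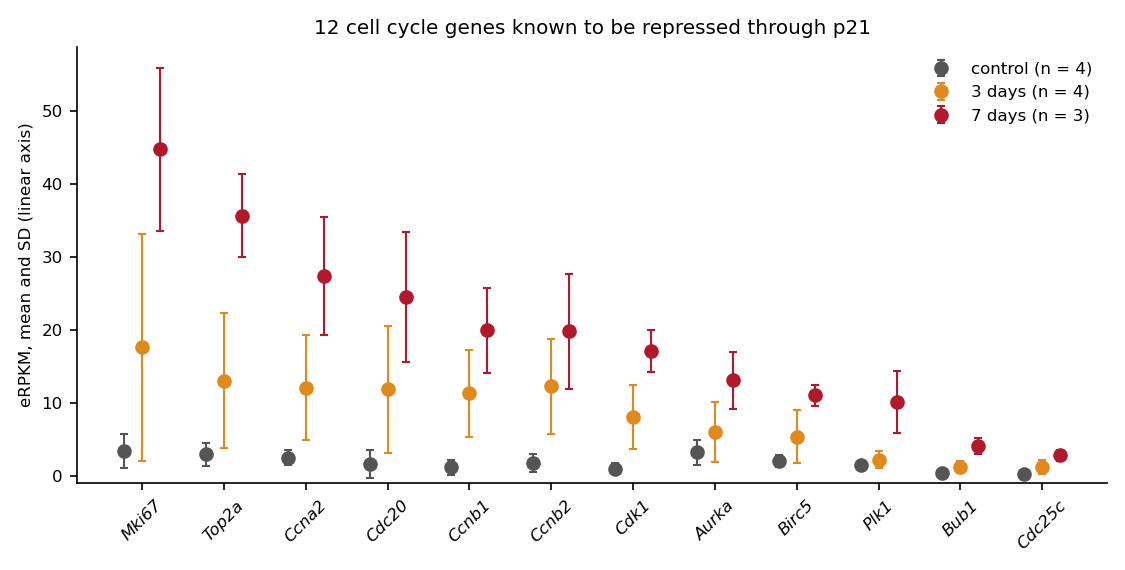
Points and bars are the mean and SD of eRPKM in 4 control, 4 3-day and 3 7-day livers for 12 cell cycle genes, ordered by their 7-day mean. Every 7-day mean is the highest of the 3 groups, and the 3-day means of Cdk1 and Ccnb1, at 8.10 and 11.3 eRPKM, lie between the others.

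Because Gdf15, Sesn2 and Ddit4 are also known targets of the integrated stress response, 12 genes of that pathway were counted. At 7 days against control 3 of 12 were higher and none lower, beside 18.0% and 5.77% of all tested genes, and the median log2 fold change was 0.54, beside 0.26 over all genes. Those were Atf3 (2.90, SE 0.29, limma adjusted p = 1.59e-05), which is itself a p53 target, Psat1 (2.77, SE 0.34, limma adjusted p = 6.04e-05) and Ppp1r15a (1.71, SE 0.32, limma adjusted p = 0.00122). Asns, Trib3, Chac1, Ddit3, Atf4 and Fgf21 were not called.

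Some cell type markers also differed at 7 days. The summed level of 5 macrophage and Kupffer cell markers ranged over 146 to 307 eRPKM in controls, 165 to 322 in the 3-day and 591 to 633 in the 7-day group, and 4 of the 5 were called higher. The sum of 6 hepatocyte markers ranged over 1238 to 3350 eRPKM in controls, 1494 to 1769 in the 3-day and 988 to 1109 in the 7-day group, and 2 of the 6 (Ttr and Tat) were called lower. Called higher were 1 of 5 cholangiocyte markers (Krt7), 1 of 6 endothelial markers (Cdh5) and 1 of 3 neutrophil markers (S100a9). Of the stellate and fibroblast markers 1 of 7 was called lower (Reln), and no T cell or B cell marker was called. Over all tested genes 18.0% were called higher and 5.77% lower, so these single calls alone do not show a shift of a cell type. Summed markers at 7 days lay above all controls for cholangiocytes (61.6 to 112 against 37.6 to 49.1 eRPKM) and neutrophils (31.9 to 46.4 against 15.5 to 25.4). For stellate cells and fibroblasts the sum lay below all controls (111 to 131 against 160 to 219 eRPKM). The endothelial, T cell and B cell sums overlapped with those of the controls. The endothelial markers went both ways, with Clec4g at a mean of 65.3 eRPKM in controls and 37.6 at 7 days, and Pecam1 at 14.5 and 22.3. No marker in the table was at 0 in every liver. The part of these marker changes in the members' levels was not tested. In bulk samples fewer cells of a type and less RNA per cell cannot be told apart.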

How the data were processed

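RNA-seq libraries of 11 livers (4 control, 4 at 3 days, 3 at 7 days), grouped by their labels, were analysed. The authors masked low-quality bases and aligned reads to mm9 with TopHat2 2.0.8 without strand. The submitters' processing notes also name featureCounts 1.4.5-p1, SAMtools and DESeq2. The deposited values are eRPKM, a form of RPKM, which the authors computed from exonic reads per kilobase and library size. Further deposited columns hold the authors' own comparison of 7 days with control, namely an adjusted p-value, a log2 ratio and a mean signal of scaled counts, and were not used.

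The filter kept the 14244 of 20893 genes that reached 0.5 eRPKM in 3 or more livers. These were tested with limma 3.58.1 (R 4.3.3) on log2(eRPKM + 0.5), using eBayes with its trend option, a single fit of the 3 groups and Benjamini-Hochberg adjustment over all tested genes. A fold change on this scale understates that of low genes. Calls needed an adjusted p under 0.01 and a change of more than 0.5, up or down, on the log2 scale. On reads simulated for 7 days against control with 200 of 14121 genes changed by 1.5 on the log2 scale, the fit called 70.0% of these and 0 others. The simulated reads had a single spread for every gene (dispersion 0.0329) and no sex effect, so these rates need not hold for the livers. Whole reads were recovered from the steps of low values, with 100% of 177542 values within 0.1 of a whole read, for depth and for limma-voom. Read limits cover counting error only. No source says how the mice were related, so p-values measure the spread between these livers. Exact two-sided permutation tests used log2 values.

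The members and gene lists were chosen with earlier results of these data known. Named were all members, Trp53 and Mdm4, and, per list and comparison, at most 3 rises and 3 falls among called genes with a mean of at least 1 eRPKM. Genes named as not called or as under the filter, and relatives named beside a member, were added after their values were seen. Positions are from GENCODE M1 (mm9). Alternatives were other pseudocounts, filters and normalizations, fits of the compared groups only, without trend, with the replicate number as a block, with Xist, depth or the label suffix MF as covariates, limma-voom on reads, leaving out each liver, and a looser threshold. The fit of female livers only was added after the values were seen.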

Additional observations from a re-analysis of the deposited data

Results flagged for a closer look

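Of the 10 p53 target genes, 5 had a response that differed between the time points by the test of 7 days against 3 days, in the same limma fit. The log2 difference, 7 days minus 3 days, was 3.13 for Cdkn1a, 2.37 for Gdf15, 2.27 for Phlda3, 1.42 for Plk2 and 1.48 for Sesn2, and all 3 livers at 7 days lay above all 4 livers at 3 days for each of them. No explanation was weighed. Depth (2641965 to 3663799 against 5292555 to 5921243 reads) and sex (2 of 4 against 3 of 3 female) also differed between these groups. In female livers alone the differences were 2.64, 2.08, 1.89, 1.49 and 1.10, of which that of Sesn2 was no longer called (limma adjusted p = 0.0176). The call of Sesn2 was also lost with log2 depth as a covariate (1.34, limma adjusted p = 0.0111), with quantile normalization (0.78, limma adjusted p = 0.0273) and without 7-day liver 1 or 3. No single liver stood apart by Dixon's test in any of 20 sets of 4 livers.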

How the results depend on the processing

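The counts of members called stayed within 1.5 times of the reported ones, from 5 to 8 at 7 days against control, under every alternative tried, except as follows. A looser rule, with adjusted p under 0.05 whatever the size of the change, gave 1 member at 3 days and 8 between 7 and 3 days, and for the other p53 targets 1 at 3 days and 23 at 7 days against control, in place of 15. The share of all tested genes that met the looser rule is not given here, so these counts cannot be weighed against it. Median-ratio size factors called 1 other target at 3 days, and 12 of all genes higher and 0 lower. Leaving out each liver gave 4 to 8 members between 7 and 3 days, with 8 without 3-day liver 3, and 0 to 1 other targets at 3 days, with 1 without 3-day liver 1. Without 3-day liver 1, 53 of all genes were called higher and 1 lower at 3 days.

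Of 750 values of the members under the alternatives, 716 kept their direction and call, 16 lost the call, 8 gained it and 10 changed sign. Sign changes were of small values. Ccng1 between 7 and 3 days was -0.19 with median-ratio size factors and -0.022 to 0.15 when leaving out each liver. Plk2 at 3 days was -0.014 with quantile normalization, -0.003 with depth as a covariate, -0.042 in female livers and -0.067 to 0.17 when leaving out each liver. At 3 days such omissions gave -0.32 to 0.085 for Trp53inp1, -0.13 to 0.56 for Gadd45a and -0.52 to 0.070 for Trp53, and Trp53 was 0.21 with the MF covariate. Mdm4 at 7 days against control was -0.27 with median-ratio size factors, -0.16 with quantile normalization, -0.12 with the replicate block, -0.33 with depth as a covariate, -0.054 by limma-voom, -0.035 in female livers and -0.14 to 0.12 when leaving out each liver. The cause of these differences was not tested.

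Scaling moved the median log2 change of all genes at 7 days against control from 0.26 to 0.02 with median-ratio size factors and -0.08 with quantile normalization, and the share of calls that were higher from 75.7% to 60.3% and 50.5%. Between 7 and 3 days that share went from 72.5% to 56.3% and 50.1%. The members' median less that of all genes was 1.32, 1.30 and 1.39 at 7 days against control and 1.16, 1.13 and 1.02 between 7 and 3 days, in the same order. With the replicate number as a block, 0, 7 and 5 members were called at 3 days, at 7 days and between them. The calls over all genes in that fit are not given here. The numbers do not pair the livers, as correlations of same-numbered livers ran from -0.222 to 0.269. Depth limits the controls, where Cdkn1a, Gdf15, Phlda3 and Eda2r rest on 2 to 20 reads per liver.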
